A study of Homo sapiens with 136 samples.

Results

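The dual-specificity MAP kinase phosphatases remove phosphate from both the threonine and the tyrosine of activated MAP kinases. The listed symbols of this family were looked up by name in the row index of the count matrix, and all 10 were present among 25435 genes: DUSP1, DUSP2, DUSP4, DUSP5, DUSP6, DUSP7, DUSP8, DUSP10, DUSP16 and DUSP18. DUSP5, in the nucleus, and DUSP6 and DUSP7, in the cytoplasm, act mainly on ERK. DUSP1, DUSP2 and DUSP4 are inducible nuclear enzymes that act on ERK and, to differing degrees, on the stress kinases JNK and p38. DUSP8, DUSP10 and DUSP16 act mainly on JNK and p38. DUSP18 belongs to the atypical enzymes, which lack the MAP kinase binding domain of the other members. In cells with an active RAS-RAF-MEK-ERK cascade, ERK raises transcription of several of its own phosphatases, above all DUSP6, DUSP4 and DUSP5, so that these genes form a negative feedback loop and serve as readouts of ERK output.

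The study treated AsPC-1 and PANC-1, both established human pancreatic cancer cell lines, with inhibitors of RAF, MEK or ERK on top of an inhibitor of autophagy, and counted transcripts by PLATE-Seq, a pooled RNA sequencing method for cells grown in plates. Cells were grown for 24 h and treated for 24 h. Every group carried hydroxychloroquine, which blocks the lysosome, or compound 19, which inhibits the lipid kinase Vps34, so neither untreated cells nor a kinase inhibitor by itself was among the libraries. The reference in each line was the autophagy inhibitor alone, with 6 libraries of each (12 per line). On that background stood 5 RAF inhibitors (sorafenib, dabrafenib, RAF709, PLX8394 and GDC-0879; 20 libraries per line), 5 MEK inhibitors (trametinib, cobimetinib, binimetinib, selumetinib and refametinib; 20 libraries) and 4 ERK inhibitors (SCH772984, ulixertinib, AZD0364 and ravoxertinib; 16 libraries). Each drug had 4 libraries per line, 1 with each autophagy inhibitor on each of 2 plates. Doses were set drug by drug from the viability of cells given that drug alone, so they were not matched in concentration between drugs. The labels do not say whether libraries of a group came from separate cultures, so the p-values measure the spread between these libraries, which may be technical.

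The libraries of both lines held 1419228 to 5871860 counts each, with a median of 3351744.5 for AsPC-1 and 3636445.5 for PANC-1, and no pair of libraries was identical. A library with no count of a gene allows a level of up to 3 counts, which is 0.511 to 2.11 CPM (counts per 1000000 counts of the library) over these depths and covers counting error only. Epithelial markers stood at different levels in the lines: median EPCAM was 678 CPM in AsPC-1 and 9.17 CPM in PANC-1, and median CDH1 was 36.6 and 1.38 CPM. In the same order, median KRT8 was 1301 and 129 CPM, KRT18 2246 and 310 CPM, and KRT19 701 and 31.7 CPM. Median KRT7 went the other way, at 8.96 and 11.7 CPM. Markers of endothelial cells, and of immune cells apart from CD68, had medians near 0 in both lines, with CD3E and KDR at 0 in all AsPC-1 libraries. The immune marker CD68 had a median of 3.64 CPM (0 to 9.01) in AsPC-1 and 2.51 CPM (0 to 9.33) in PANC-1. The sum of 6 epithelial markers moved with treatment. Its median in AsPC-1 was 3516 CPM (2931 to 4036) with an autophagy inhibitor alone, 5587 CPM (4355 to 7723) with MEK inhibitors and 5544 CPM (4821 to 6541) with ERK inhibitors. In PANC-1 it was 667 CPM (579 to 759), 467 CPM (336 to 654) and 481 CPM (362 to 556). The sum of 6 fibroblast markers, in AsPC-1 mostly LUM, had medians of 62.3, 150 and 176 CPM there, and of 56.1, 80.2 and 74.8 CPM in PANC-1. The part of these markers in the results below was not tested.

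DUSP4 and DUSP5 each had enough counts to be tested in 1 line only, DUSP4 in AsPC-1 and DUSP5 in PANC-1. DUSP4 averaged 82.8 ± 49.7 CPM (SD, n = 68 libraries) in AsPC-1, while PANC-1 gave 50 counts in 68 libraries, with no count in 44 of them. DUSP5 showed the opposite pattern, at 31.2 ± 20.7 CPM (n = 68) in PANC-1 and 35 counts over 68 libraries in AsPC-1. DUSP6 averaged 34.3 ± 26.4 CPM in AsPC-1 and 7.76 ± 7.73 CPM in PANC-1. DUSP7 averaged 28.8 ± 16.1 CPM and 6.08 ± 2.42 CPM in the same order. Of the stress-kinase phosphatases, DUSP8 averaged 0.903 ± 1.07 CPM in AsPC-1 and 3.10 ± 2.41 CPM in PANC-1, DUSP16 averaged 3.54 ± 1.83 and 6.36 ± 2.38 CPM, and DUSP10 averaged 2.02 ± 1.41 and 0.781 ± 0.606 CPM. DUSP1 averaged 12.7 ± 5.42 CPM in AsPC-1 and 17.7 ± 4.46 CPM in PANC-1, and DUSP18 averaged 15.3 ± 6.28 and 29.6 ± 10.1 CPM. DUSP2 gave 34 counts in AsPC-1 and 80 in PANC-1 over 68 libraries each. These levels were not compared between the lines by a test, because line and plate cannot be told apart, and they are not comparable between genes, because CPM carries no correction for length. Filtering on low counts left 8 members testable in AsPC-1 (all but DUSP2 and DUSP5), among 12761 genes, and 7 in PANC-1 (all but DUSP2, DUSP4 and DUSP10), among 12627 genes.

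On GRCh38, with the gene spans of GENCODE release 29, DUSP6 lies at chr12:89347232-89353271 on the minus strand and DUSP5 at chr10:110497838-110511544 on the plus strand. Also on the minus strand lie DUSP1 at chr5:172768090-172771195, DUSP2 at chr2:96143166-96145440, DUSP7 at chr3:52048919-52056550, DUSP8 at chr11:1554044-1571920, DUSP10 at chr1:221701424-221742176, DUSP16 at chr12:12474210-12562383 and DUSP18 at chr22:30652051-30667890. The span of DUSP8 overlaps KRTAP5-AS1, and that of DUSP18 overlaps SLC35E4, each on the opposite strand. Since no source used here states whether counting used strand, reads of these pairs may not be separated.

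Promoter windows of 300 bases (250 before to 50 after the start, RefSeq, GRCh38.p14) were read for 8 members in 9 windows. DUSP4 was left out of this search, and DUSP5 had no window. The full cyclic AMP response element TGACGTCA, which reads the same on both strands, was present once in the window of DUSP1. It was present at 2 places in that of DUSP8, and in no other of the 9 windows. It occurs in 1.85% of the 35116 promoter windows of the table. The 250 bases before the start of these 2 genes are shown because they hold the element, while the transcripts of the 2 genes moved in opposite directions under MEK inhibitors in AsPC-1. Both are written 5′ to 3′ on the minus strand, with TGACGTCA in capitals.
DUSP1, chr5:172771196-172771445: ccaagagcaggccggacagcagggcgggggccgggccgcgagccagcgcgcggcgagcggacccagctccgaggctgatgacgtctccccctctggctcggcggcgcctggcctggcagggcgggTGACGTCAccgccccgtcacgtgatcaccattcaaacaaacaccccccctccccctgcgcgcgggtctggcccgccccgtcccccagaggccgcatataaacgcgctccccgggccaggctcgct
DUSP8, chr11:1572272-1572521: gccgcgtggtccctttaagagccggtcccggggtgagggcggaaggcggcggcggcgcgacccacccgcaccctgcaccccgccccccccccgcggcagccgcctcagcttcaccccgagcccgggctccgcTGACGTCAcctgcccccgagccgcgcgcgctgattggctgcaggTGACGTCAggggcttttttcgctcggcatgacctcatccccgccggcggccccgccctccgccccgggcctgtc
The element began 125 bases before the start of DUSP1, and 118 and 74 bases before that of DUSP8. The TATA box TATAAA stood 30 bases before the start of DUSP1, a motif found in 11.5% of windows. None of the 9 windows held the AP-1 motif TGANTCA (7.71% of windows) or the ETS cores CCGGAA (17.2%) and CCGGAAG (10.3%), each searched on both strands. The GC box GGGCGG, found in 45.0% of windows, was present in the windows of all matched members except DUSP6. A match describes these letters and does not show that a factor binds them.

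Of the ERK-specific phosphatases, DUSP6 fell with MEK and with ERK inhibitors in both lines, DUSP5 in PANC-1 and DUSP7 in AsPC-1. The nuclear phosphatase DUSP4 fell with both classes in AsPC-1, where it could be tested, and DUSP1 fell there with MEK inhibitors. Of the stress-kinase phosphatases, DUSP16 rose with MEK and with ERK inhibitors in AsPC-1 and with ERK inhibitors in PANC-1, and DUSP8 rose with MEK inhibitors in AsPC-1 and with ERK inhibitors in PANC-1. DUSP10 and DUSP18 passed no test of a class of kinase inhibitors against the autophagy inhibitors alone. Each class value below is the mean effect over the drugs of a class, with both autophagy inhibitors weighted equally, from edgeR's quasi-likelihood test with a plate term and Benjamini-Hochberg adjustment over all genes of a line (threshold 0.05). In bulk RNA of treated cells, fewer cells with a transcript and less of it per cell cannot be told apart.

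**Figure D1:**
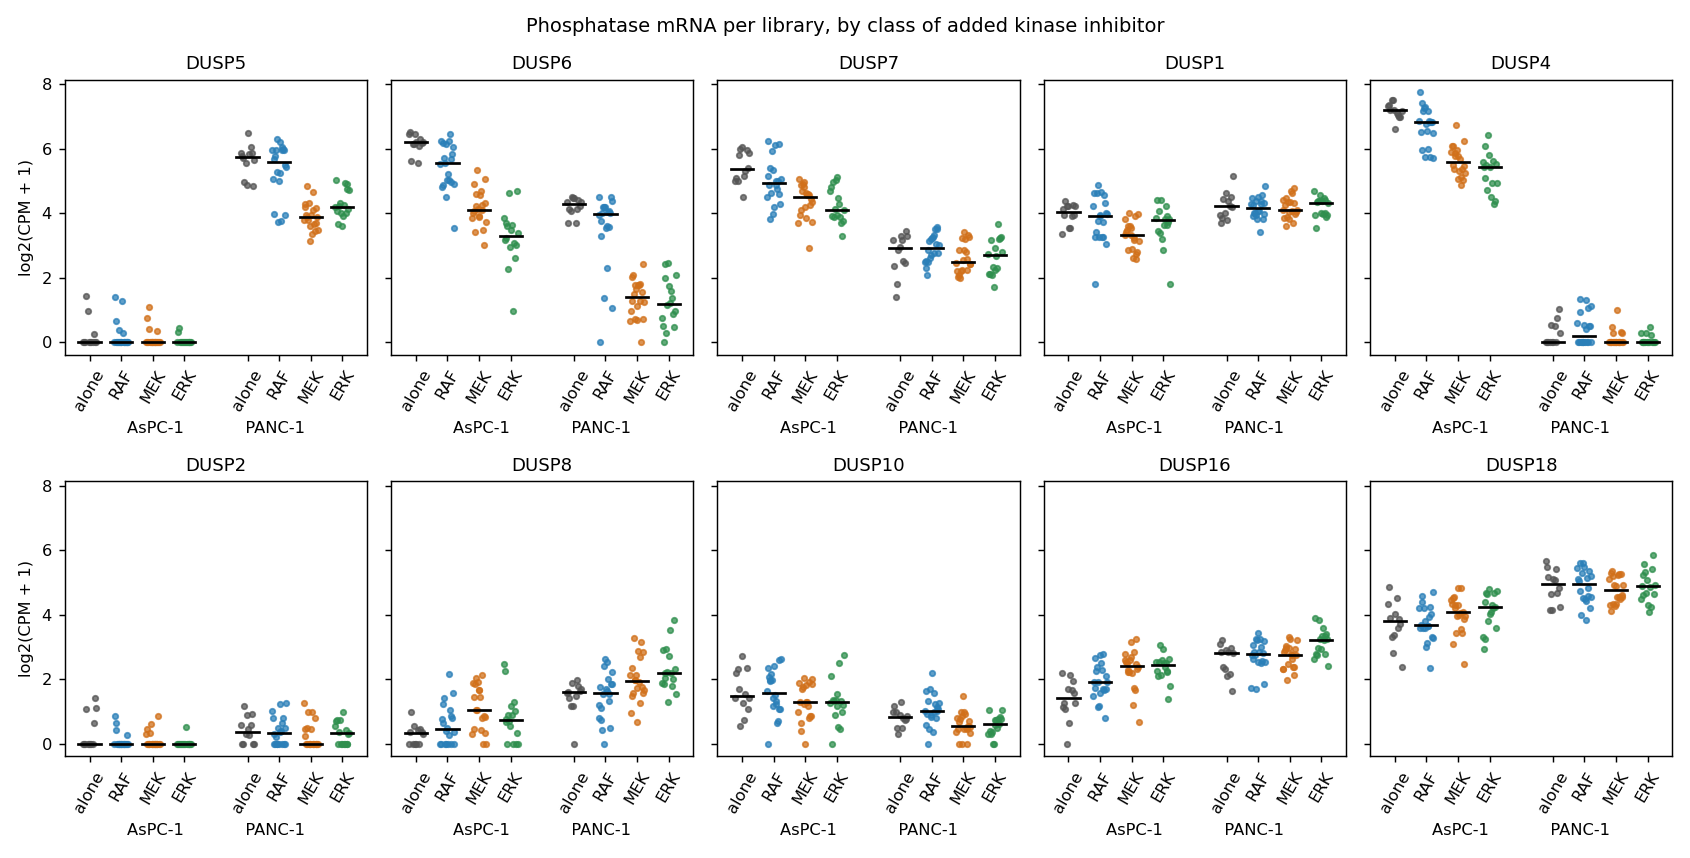
Levels of the members in every library, as log2(CPM + 1), by class of kinase inhibitor added to an autophagy inhibitor, in AsPC-1 and PANC-1; each point is 1 library (12 alone, 20 RAF, 20 MEK, 16 ERK per line) and black bars are medians. The points of DUSP6 under MEK and ERK inhibitors lie below all points of the autophagy inhibitor alone in both lines, DUSP4 is near 0 in PANC-1 and DUSP5 is near 0 in AsPC-1.

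In AsPC-1, DUSP6 ranged from 46.3 to 91.0 CPM with a median of 72.3 CPM (n = 12) in the libraries of an autophagy inhibitor alone. Libraries with a MEK inhibitor ranged from 7.14 to 39.2 CPM with a median of 16.3 CPM (n = 20), and those with an ERK inhibitor from 0.951 to 24.7 CPM with a median of 8.90 CPM (n = 16). Neither set overlapped the libraries without a kinase inhibitor. DUSP6 was 3.99-fold lower with MEK inhibitors (log2 fold change −1.996 ± 0.135 SE, adjusted p = 2.53e-18) and 7.57-fold lower with ERK inhibitors (−2.92 ± 0.15, adjusted p = 6.09e-23). Among the genes tested, 0.784% lay below all libraries of the autophagy inhibitors alone in all MEK inhibitor libraries, and 1.02% in all ERK inhibitor libraries.

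In PANC-1, DUSP6 ranged from 11.9 to 21.8 CPM with a median of 18.4 CPM without a kinase inhibitor. It ranged from 0 to 4.37 CPM with a median of 1.64 CPM under MEK inhibitors, and from 0 to 4.46 CPM with a median of 1.28 CPM under ERK inhibitors. The groups again did not overlap, a separation shown by 0.467% of genes tested for MEK inhibitors and 0.356% for ERK inhibitors. DUSP6 fell 11.1-fold with MEK inhibitors (log2 fold change −3.47 ± 0.23 SE, adjusted p = 6.35e-17) and 13.8-fold with ERK inhibitors (−3.79 ± 0.26, adjusted p = 2.12e-16). These values rest on fewer counts per library than in AsPC-1, and their standard errors are larger.

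The nuclear ERK phosphatase DUSP5 in PANC-1 ranged from 27.6 to 88.1 CPM with a median of 52.2 CPM (n = 12) with the autophagy inhibitors alone. Its range was 7.79 to 27.7 CPM with a median of 13.6 CPM (n = 20) under MEK inhibitors, and 11.1 to 31.4 CPM with a median of 17.4 CPM (n = 16) under ERK inhibitors. Of the MEK inhibitor libraries 19 of 20 lay below every library without a kinase inhibitor, and of the ERK inhibitor libraries 13 of 16 did. No share over all genes is given for these counts, so they only describe the libraries. The fall was 3.48-fold with MEK inhibitors (log2 fold change −1.80 ± 0.12 SE, adjusted p = 7.96e-17) and 2.65-fold with ERK inhibitors (−1.41 ± 0.13, adjusted p = 2.25e-12).

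DUSP7, the other cytoplasmic ERK phosphatase, ranged from 21.5 to 65.2 CPM with a median of 40.3 CPM without a kinase inhibitor in AsPC-1. It ranged from 6.54 to 32.6 CPM (median 21.6 CPM) under MEK inhibitors and from 8.73 to 34.0 CPM (median 16.3 CPM) under ERK inhibitors, so the groups overlapped. It fell 2.10-fold (log2 fold change −1.07 ± 0.12 SE, adjusted p = 3.40e-11) and 2.24-fold (−1.17 ± 0.13, adjusted p = 1.56e-11). In PANC-1 the means were 6.17 ± 2.65 CPM (SD, n = 12) without a kinase inhibitor, 5.46 ± 2.19 CPM (n = 20) with MEK inhibitors and 5.76 ± 2.59 CPM (n = 16) with ERK inhibitors. DUSP7 there did not pass the test, with log2 fold changes of −0.27 ± 0.18 (adjusted p = 0.318) and −0.22 ± 0.18 (adjusted p = 0.499).

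Of the inducible nuclear phosphatases, DUSP4 in AsPC-1 ranged from 97.3 to 183 CPM with a median of 145 CPM without a kinase inhibitor. Under MEK inhibitors it ranged from 28.4 to 105 CPM (median 47.1 CPM), and under ERK inhibitors from 18.5 to 85.3 CPM (median 42.5 CPM). All 16 ERK inhibitor libraries lay below every library without a kinase inhibitor, a separation shown by 1.02% of genes tested. DUSP4 fell 2.90-fold (log2 fold change −1.54 ± 0.07 SE, adjusted p = 6.43e-27) and 3.68-fold (−1.88 ± 0.08, adjusted p = 1.28e-29). DUSP1, an immediate early gene that also answers to stress signals, averaged 15.1 ± 3.43 CPM (SD, n = 12) without a kinase inhibitor, 9.33 ± 3.21 CPM (n = 20) with MEK inhibitors and 12.5 ± 4.78 CPM (n = 16) with ERK inhibitors. DUSP1 fell 1.56-fold with MEK inhibitors (−0.64 ± 0.17, adjusted p = 0.00188), a call that was not reached within plate A alone (adjusted p = 0.0744, from 0.00111 to 0.0744 over 26 alternatives). With ERK inhibitors its change was −0.30 ± 0.18 (adjusted p = 0.197). In PANC-1 DUSP1 averaged between 17.4 and 18.6 CPM in all 4 classes of library and passed no class test. DUSP2 was too thinly counted to test in either line.

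The stress-kinase phosphatases were read at low counts. DUSP16 in AsPC-1 had a median of 1.70 CPM (0 to 3.60) without a kinase inhibitor, 4.38 CPM (0.606 to 8.51) with MEK inhibitors and 4.47 CPM (1.62 to 7.38) with ERK inhibitors. Above every library without a kinase inhibitor stood 16 of 20 MEK inhibitor libraries and 12 of 16 ERK inhibitor libraries. For such counts of libraries above, here and for the genes and drugs below, no share over all genes is given, so they only describe the libraries. DUSP16 rose 2.34-fold with MEK inhibitors (log2 fold change 1.22 ± 0.32 SE, adjusted p = 0.00178) and 2.31-fold with ERK inhibitors (1.21 ± 0.33, adjusted p = 0.00281). Within plate B alone neither call was reached (adjusted p = 0.323 and 0.286). Over all alternatives the adjusted p ran from 1.53e-04 to 0.323 and from 3.51e-04 to 0.286.

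DUSP16 in PANC-1 had a median of 6.12 CPM (2.12 to 8.28) without a kinase inhibitor and 8.41 CPM (4.33 to 14.1) with ERK inhibitors, of which 9 of 16 libraries were above every library without a kinase inhibitor. It rose 1.43-fold with ERK inhibitors (log2 fold change 0.52 ± 0.17 SE, adjusted p = 0.033), and its change with MEK inhibitors was 0.03 ± 0.17 (adjusted p = 0.936). The rise with ERK inhibitors was not called without ulixertinib (0.32, adjusted p = 0.312), and 9 of 25 alternatives in all lost it (adjusted p from 0.00552 to 0.505). Among these were the omissions of hydroxychloroquine alone replicate 1, 2 or 5 and of Vps34 inhibitor alone replicate 4 or 6 (adjusted p from 0.0517 to 0.0717).

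DUSP8 in AsPC-1 had 12 counts over the 12 libraries without a kinase inhibitor, 92 over the 20 libraries with MEK inhibitors and 63 over the 16 with ERK inhibitors, or 0.273, 1.45 and 1.24 CPM over pooled libraries. It rose with MEK inhibitors (log2 fold change 2.10 ± 0.68 SE, adjusted p = 0.0147), with 11 of 20 libraries above every library without a kinase inhibitor, and its change with ERK inhibitors was 1.34 ± 0.76 (adjusted p = 0.187). The call with MEK inhibitors was not reached within plate A or plate B alone (adjusted p = 0.0813 and 0.221, from 0.00471 to 0.221 over all alternatives). In PANC-1 the median of DUSP8 was 2.04 CPM (0 to 2.98) without a kinase inhibitor, 2.85 CPM (0.599 to 8.77) with MEK inhibitors and 3.56 CPM (1.49 to 13.4) with ERK inhibitors. It rose 2.03-fold with ERK inhibitors (1.02 ± 0.29, adjusted p = 0.0111), and its change with MEK inhibitors was 0.67 ± 0.29 (adjusted p = 0.0974), or 0.91 without cobimetinib (adjusted p = 0.0239). Without ulixertinib the rise with ERK inhibitors was 0.63 and was not called (adjusted p = 0.223, from 0.00133 to 0.236 over all alternatives).

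DUSP10, a phosphatase of p38 and JNK, averaged 2.37 ± 1.58 CPM (SD, n = 12) without a kinase inhibitor in AsPC-1, 1.64 ± 0.971 CPM (n = 20) with MEK inhibitors and 1.79 ± 1.56 CPM (n = 16) with ERK inhibitors. Its log2 fold changes, −0.67 ± 0.42 SE and −0.50 ± 0.43, did not pass the test (adjusted p = 0.244 and 0.418). In PANC-1 it stayed under the filter, at 0.796 ± 0.356 CPM without a kinase inhibitor and 0.512 ± 0.325 CPM with ERK inhibitors. DUSP18 changed by 0.29 ± 0.17 with MEK inhibitors (adjusted p = 0.197) and by 0.40 ± 0.17 with ERK inhibitors (adjusted p = 0.0741) in AsPC-1, where the latter was called without hydroxychloroquine alone replicate 4 or Vps34 inhibitor alone replicate 2 (adjusted p = 0.0248 and 0.0338, up to 0.465 over all alternatives). In PANC-1 it changed by −0.13 ± 0.12 (adjusted p = 0.497) and −0.04 ± 0.12 (adjusted p = 0.903).

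In counts, 6 of 8 tested members were called with MEK inhibitors in AsPC-1 (4 lower and 2 higher), where 28.9% of all genes tested were called (16.1% lower and 12.9% higher). With ERK inhibitors 4 of 8 were called (3 lower and 1 higher), against 31.1% of all genes (17.4% lower and 13.7% higher). In PANC-1, MEK inhibitors gave 2 of 7 (both lower), against 18.5% of all genes (10.6% lower and 7.9% higher). ERK inhibitors gave 4 of 7 (2 lower and 2 higher), against 14.1% (8.68% lower and 5.45% higher). The 2 of 7 in PANC-1 with MEK inhibitors and the 4 of 8 in AsPC-1 with ERK inhibitors lie nearest to their backgrounds. None of these counts was tested against its background. The members were chosen with earlier results of these data known, so these shares are a description.

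**Figure D2:**
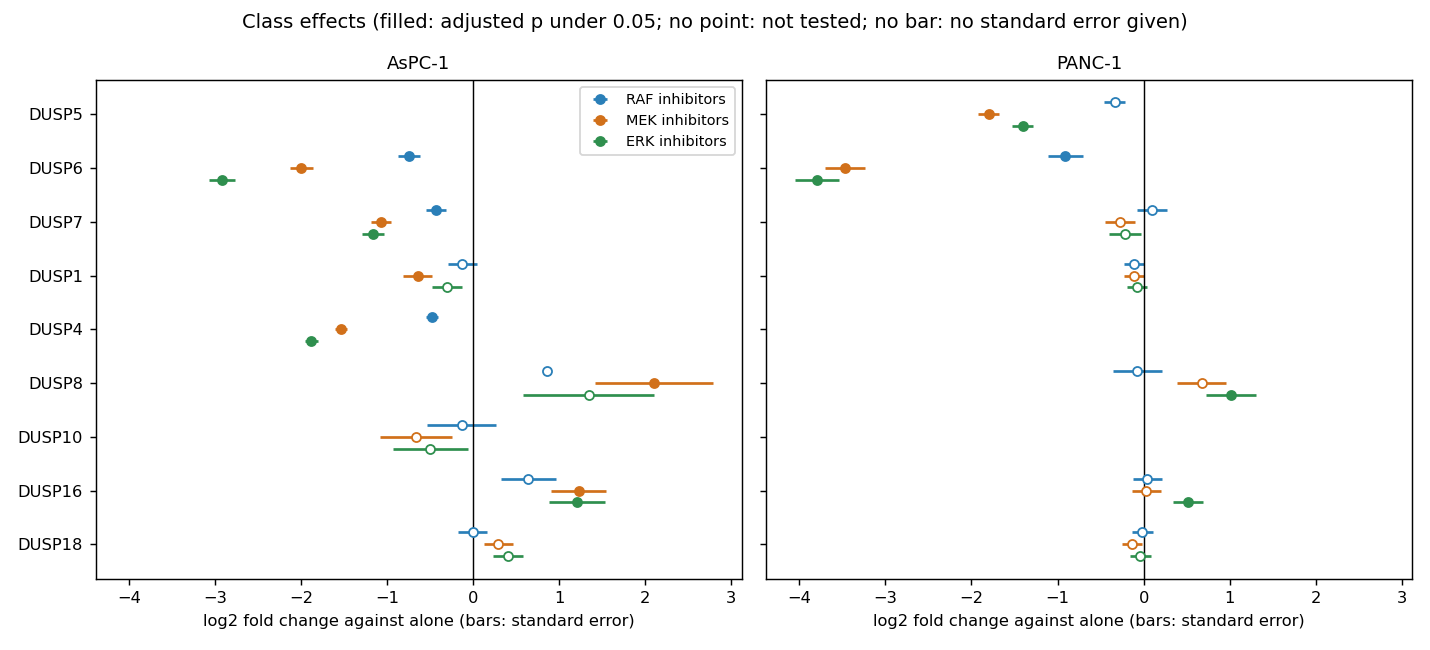
Log2 fold change of each tested member for RAF, MEK and ERK inhibitors against the autophagy inhibitors alone, in AsPC-1 and PANC-1, with bars of ± 1 standard error; filled points have an adjusted p under 0.05, a missing point was not tested and a point with no bar has no standard error. DUSP6 is the lowest member in PANC-1, at −3.47 with MEK and −3.79 with ERK inhibitors. The points of DUSP8 and DUSP16 for MEK and ERK inhibitors lie above 0 in both lines. Not all of them were called, and that of DUSP16 with MEK inhibitors in PANC-1 lies near 0.

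RAF inhibitors as a class gave fewer calls. In AsPC-1, 3 of 8 tested members were called, all lower, against 8.66% of all genes tested (4.91% lower). DUSP4 had a log2 fold change of −0.48 ± 0.07 SE (adjusted p = 8.81e-07), DUSP6 of −0.75 ± 0.13 (adjusted p = 4.74e-05) and DUSP7 of −0.44 ± 0.12 (adjusted p = 0.00967). With the 5 drugs taken as the replicates, none of the 3 was called (adjusted p = 0.0852, 0.0713 and 0.0921). Over all alternatives the adjusted p reached 0.0852 for DUSP4, 0.295 for DUSP6 and 0.479 for DUSP7, from lowest values of 8.84e-11, 3.46e-07 and 8.10e-04. DUSP7 was also not called without RAF709 (adjusted p = 0.115) or without GDC-0879 (adjusted p = 0.0624). In PANC-1, 1 of 7 was called, against 0.539% of all genes (0.436% lower): DUSP6, at −0.91 ± 0.20 (adjusted p = 0.015). Without RAF709 the value for DUSP6 was −0.25 (adjusted p = 0.816, from 0.00216 to 0.816 over all alternatives), and with drugs as replicates it was −0.52 (adjusted p = 0.55).

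RAF709, an inhibitor of BRAF and CRAF, was set against the other 4 RAF inhibitors because its effect had been seen to differ in earlier results of these data, so the differences are a description. Between them 5.81% of all genes were called in AsPC-1 and 6.6% in PANC-1. In PANC-1, DUSP6 gave 0 and 3.90 CPM with RAF709 and hydroxychloroquine on plates A and B, and 1.58 and 1.10 CPM with RAF709 and the Vps34 inhibitor. DUSP5 gave 14.9, 12.7, 12.2 and 14.3 CPM in the same libraries. All of these values lie below every library of the autophagy inhibitors alone, and within the range of the MEK inhibitor libraries. No share over all genes is given for this separation, so it only describes the libraries. Relative to the other RAF inhibitors, the log2 difference was −3.30 ± 0.44 SE for DUSP6 (9.84-fold lower) and −1.95 ± 0.22 for DUSP5 (3.86-fold lower). In AsPC-1, DUSP6 gave 27.0 and 31.8 CPM with hydroxychloroquine and 21.7 and 10.7 CPM with the Vps34 inhibitor under RAF709. There the differences from the other RAF inhibitors were −1.14 ± 0.23 for DUSP6, −0.82 ± 0.12 for DUSP4 and −1.15 ± 0.28 for DUSP1. The stress-kinase phosphatase DUSP8 differed in PANC-1 by 1.26 ± 0.42, short of the threshold with edgeR (adjusted p = 0.0572) and past it with DESeq2 (1.28, adjusted p = 0.0276), with a stricter filter (adjusted p = 0.0487) and without GDC-0879 (adjusted p = 0.029), with adjusted p up to 0.419 over all alternatives.

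The drugs were then read one by one with edgeR. Against the autophagy inhibitors alone, which all 14 comparisons of a line share, DUSP6 fell with 11 of 14 drugs in AsPC-1 and with 10 of 14 in PANC-1. The drugs with a call in PANC-1 were RAF709 and all MEK and ERK inhibitors, while the other 4 RAF inhibitors had log2 fold changes between −0.39 and −0.12. In AsPC-1, GDC-0879, a BRAF inhibitor, also lowered DUSP6 (−1.26 ± 0.23 SE, adjusted p = 5.33e-05), with 31.4, 29.3, 28.6 and 30.2 CPM in its 4 libraries. Dabrafenib (−0.66 ± 0.22, adjusted p = 0.0915), PLX8394 (−0.19 ± 0.21) and sorafenib (0.04 ± 0.21) did not pass edgeR's test. DESeq2 called DUSP6 lower with dabrafenib (−0.65, adjusted p = 0.0278), and also DUSP4 (−0.33, adjusted p = 0.0351, against 0.102 with edgeR). Over all alternatives the adjusted p with dabrafenib ran up to 0.763 for DUSP6 and 0.72 for DUSP4. The share of all genes called varied widely between drugs. In AsPC-1 it was 0.102% with sorafenib, 0.76% with PLX8394, 3.05% with dabrafenib, 10.9% with GDC-0879 and 12.7% with RAF709. Among MEK inhibitors there it was 7.44% with selumetinib, 15.4% with trametinib, 16% with cobimetinib, 16.1% with binimetinib and 17.6% with refametinib, and among ERK inhibitors 14.7% with ravoxertinib, 17.5% with SCH772984, 18.5% with AZD0364 and 21.3% with ulixertinib. In PANC-1 it was 0.0871% with dabrafenib and with sorafenib, 0.143% with PLX8394, 0.42% with GDC-0879 and 8.47% with RAF709. The MEK inhibitors gave 3.71% (selumetinib), 6.49% (refametinib), 7.27% (binimetinib), 8.64% (cobimetinib) and 13.6% (trametinib), and the ERK inhibitors 4.36% (ravoxertinib), 5.24% (AZD0364), 6.88% (SCH772984) and 14.6% (ulixertinib). In PANC-1 the 10 drugs that lowered DUSP6 were also the 10 with the most genes called.

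**Figure D3:**
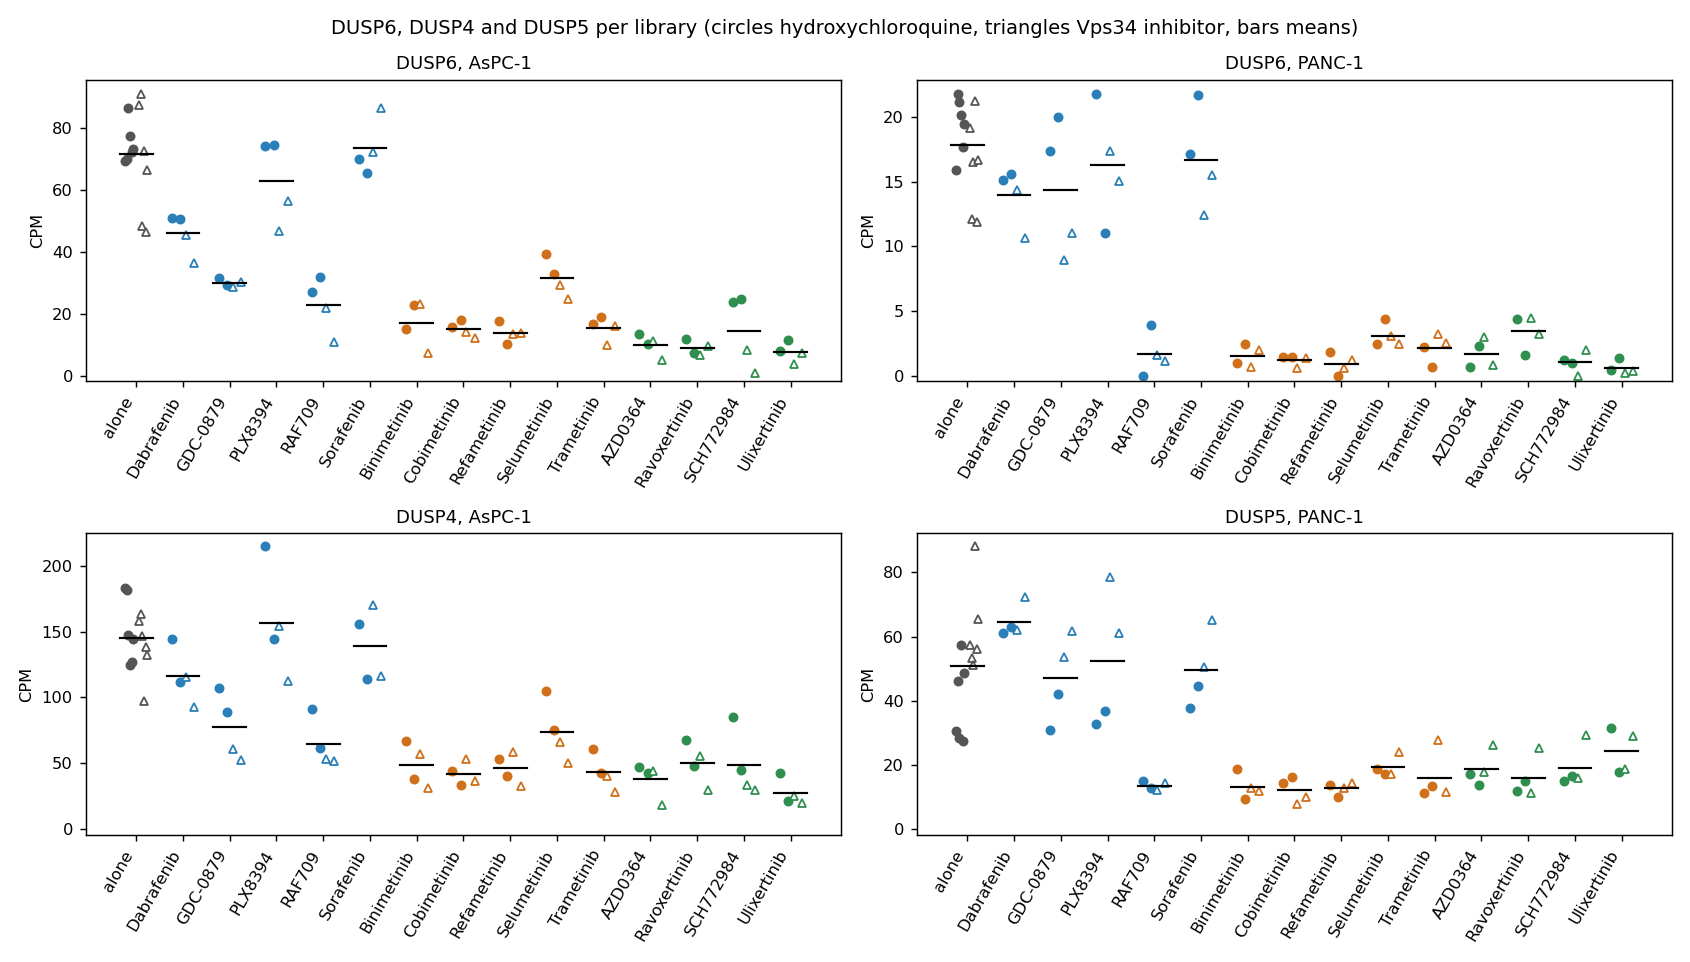
CPM in each library of DUSP6 in AsPC-1 and PANC-1, DUSP4 in AsPC-1 and DUSP5 in PANC-1, by kinase inhibitor; circles are libraries with hydroxychloroquine, triangles libraries with the Vps34 inhibitor and bars means. In PANC-1 the 4 libraries of RAF709 lie with those of the MEK and ERK inhibitors, between 0 and 3.90 CPM for DUSP6, below every library without a kinase inhibitor.

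Ulixertinib gave the largest fall of DUSP6 among the 14 drugs in both lines. In PANC-1 its 4 libraries held 2, 4, 1 and 1 counts of DUSP6, or 0.422 and 1.33 CPM with hydroxychloroquine and 0.222 and 0.382 CPM with the Vps34 inhibitor. The fall was 35.4-fold (log2 fold change −5.15 ± 0.53 SE, adjusted p = 1.91e-10). In AsPC-1 the values were 8.06 and 11.5 CPM with hydroxychloroquine and 3.83 and 7.11 CPM with the Vps34 inhibitor, a fall of 9.27-fold (−3.21 ± 0.28). Selumetinib gave the smallest fall of DUSP6 among MEK and ERK inhibitors in AsPC-1 (−1.20 ± 0.23, adjusted p = 1.41e-04), with 39.2, 32.7, 29.1 and 24.6 CPM. In PANC-1 selumetinib (−2.53 ± 0.38) and ravoxertinib (−2.44 ± 0.37) had the smallest falls. Since doses were not matched, this order describes the drugs as dosed.

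DUSP4 followed a similar order in AsPC-1, from −2.39 ± 0.14 SE with ulixertinib (5.23-fold lower) to −0.95 ± 0.12 with GDC-0879 among the 11 drugs with a call, with values of 42.4, 21.8, 25.5 and 19.7 CPM under ulixertinib. DUSP7 fell with 12 of 14 drugs in AsPC-1, from −1.36 ± 0.21 with trametinib to −0.68 ± 0.19 with GDC-0879, and did not pass the test with PLX8394 or sorafenib. In PANC-1 no drug gave a call for DUSP7, and trametinib came nearest (−0.76 ± 0.31, adjusted p = 0.093). DUSP5 in PANC-1 fell with the 10 drugs that lowered DUSP6, but in another order. Cobimetinib gave the largest fall (−2.08 ± 0.22, 4.23-fold) and ulixertinib the smallest (−1.06 ± 0.20, 2.08-fold, adjusted p = 1.20e-04). DUSP5 under ulixertinib gave 31.4 and 17.9 CPM with hydroxychloroquine and 18.9 and 29.1 CPM with the Vps34 inhibitor. So the drug with the lowest DUSP6 in PANC-1 had the smallest called fall of DUSP5.

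DUSP1 was called lower with 3 drugs in AsPC-1: RAF709 (−1.04 ± 0.29 SE, adjusted p = 0.00814), ravoxertinib (−0.96 ± 0.30, adjusted p = 0.0189) and refametinib (−0.85 ± 0.28, adjusted p = 0.0263). None of the 3 was called within plate B alone (adjusted p = 0.399, 0.144 and 0.0948). In PANC-1 it was called lower with trametinib, at 13.01, 15.4, 11.2 and 12.1 CPM (−0.56 ± 0.19, adjusted p = 0.0458). Without the plate term that last value lay above the threshold (adjusted p = 0.0512), and 13 of 20 alternatives lost the call (adjusted p from 0.0293 to 0.292).

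**Figure D4:**
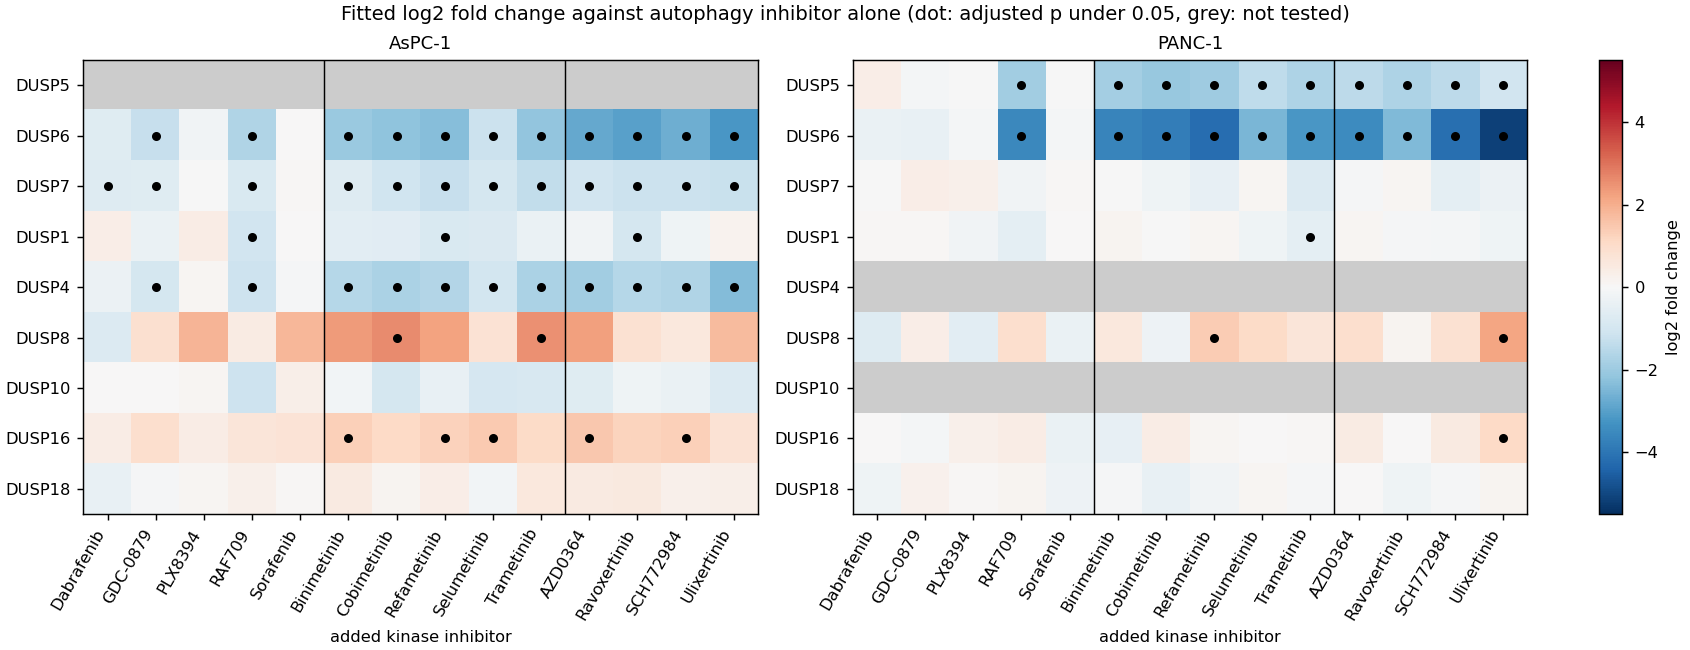
Log2 fold change of each member with each kinase inhibitor against the autophagy inhibitors alone, for AsPC-1 and PANC-1; blue is lower, red is higher, a dot marks an adjusted p under 0.05 and grey cells were not tested. Columns of RAF709, the MEK inhibitors and the ERK inhibitors share low DUSP6 in both lines, and the highest DUSP16 and DUSP8 in PANC-1 are those of ulixertinib, at 1.11 and 2.19.

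Ulixertinib also gave the highest stress-kinase phosphatases in PANC-1, a drug singled out after its values were seen. DUSP8 gave 6.54 and 10.6 CPM with hydroxychloroquine and 6.67 and 13.4 CPM with the Vps34 inhibitor (31, 32, 30 and 35 counts), against at most 2.98 CPM without a kinase inhibitor. The rise was 4.56-fold (log2 fold change 2.19 ± 0.37 SE, adjusted p = 1.65e-05). DUSP16 gave 14.1, 10.97, 13.3 and 9.56 CPM in the same order, against at most 8.28 CPM without a kinase inhibitor, and rose 2.16-fold (1.11 ± 0.24, adjusted p = 6.21e-04). The DUSP8 call held under all 20 alternatives and that of DUSP16 under all but 1 of 20, whose adjusted p was 0.0789. All 4 libraries of the drug stood above the 12 libraries without a kinase inhibitor for both genes. Refametinib was the other drug with a DUSP8 call in PANC-1 (1.39 ± 0.41, adjusted p = 0.0289), at 8.77 and 8.0 CPM with hydroxychloroquine and 3.40 and 2.35 CPM with the Vps34 inhibitor.

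In AsPC-1, DUSP16 was called higher with 5 drugs: AZD0364 (1.503 ± 0.446 SE, adjusted p = 0.0106), selumetinib (1.42 ± 0.45, adjusted p = 0.0379), SCH772984 (1.31 ± 0.46, adjusted p = 0.0386), binimetinib (1.29 ± 0.46, adjusted p = 0.0439) and refametinib (1.26 ± 0.46, adjusted p = 0.0439). Under AZD0364 the values were 4.77 and 4.68 CPM with hydroxychloroquine and 7.38 and 3.80 CPM with the Vps34 inhibitor, all above the highest library without a kinase inhibitor. DUSP8 was called with cobimetinib (2.61 ± 0.94, adjusted p = 0.0462) and trametinib (2.50 ± 0.90, adjusted p = 0.049), on 27 and 21 counts over 4 libraries. With no filter on low counts, all of these calls but that of DUSP16 with AZD0364 were lost, at adjusted p between 0.0568 and 0.0737. Over all alternatives DUSP16 with AZD0364 lost its call in 1 of 20, within plate B (adjusted p = 0.477). Binimetinib and refametinib each lost the DUSP16 call in 9 of 20, and selumetinib and SCH772984 in 7 of 20, with omissions of single libraries of the autophagy inhibitors alone among them (adjusted p up to 0.324, 0.527, 0.488 and 0.352). DUSP8 lost its call in 10 of 19 with cobimetinib and in 13 of 19 with trametinib.

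**Figure D5:**
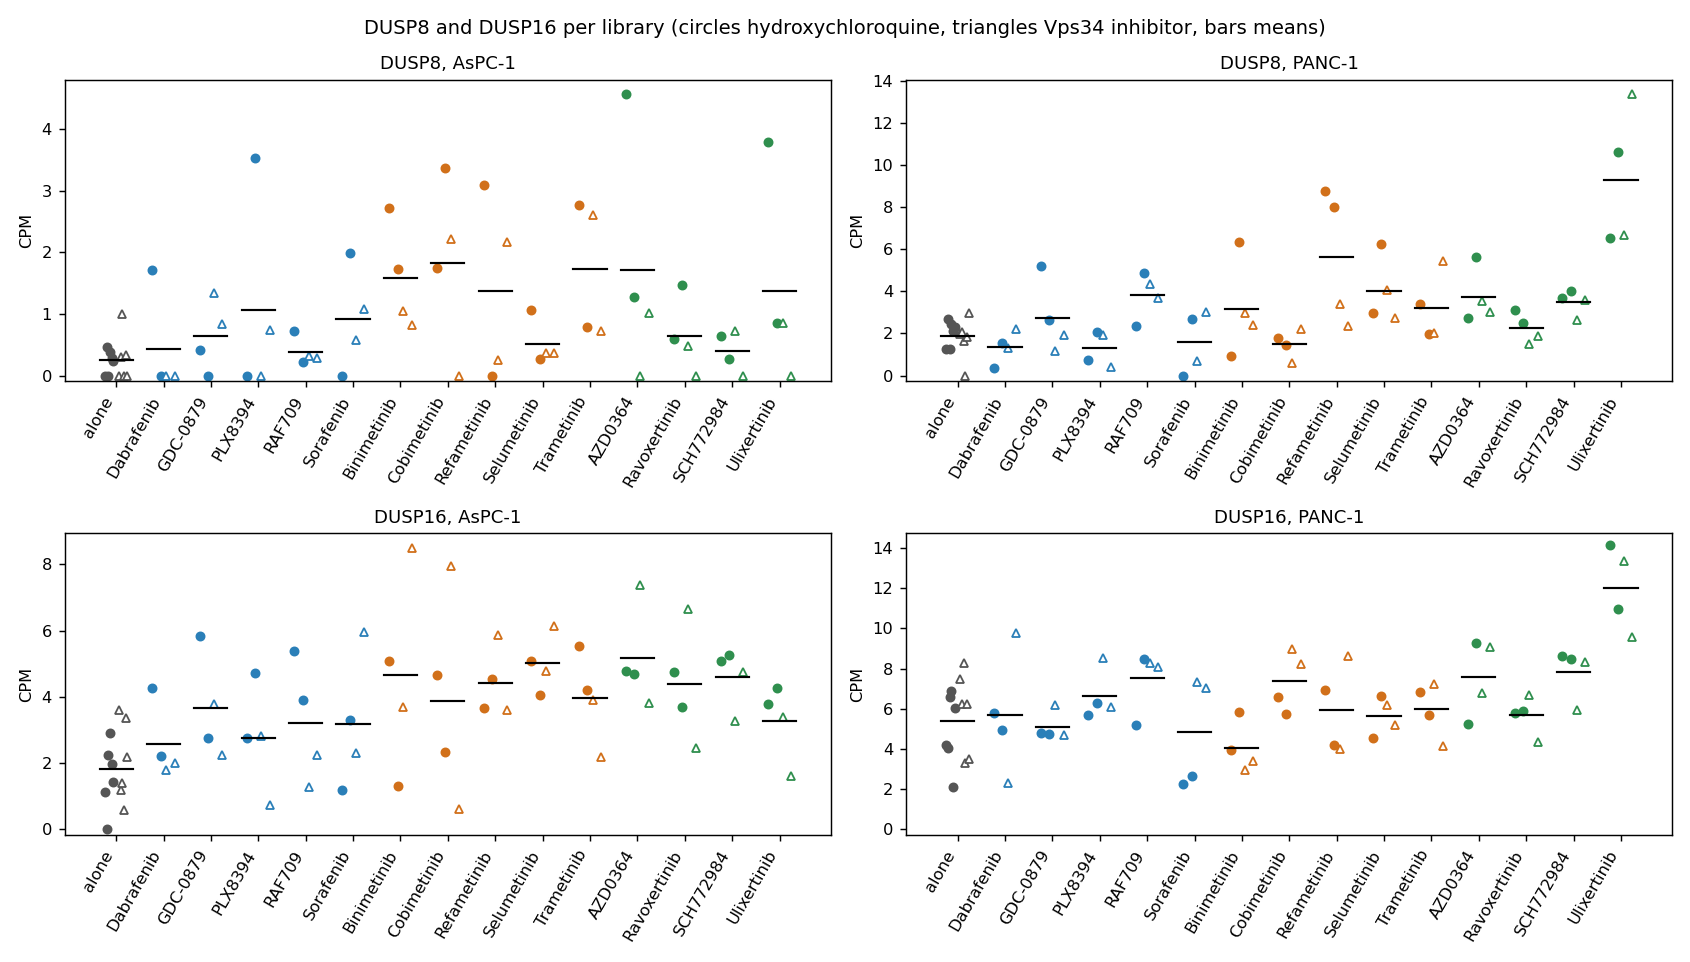
CPM of the stress-kinase phosphatases DUSP8 and DUSP16 in each library, by kinase inhibitor and line; circles are libraries with hydroxychloroquine, triangles libraries with the Vps34 inhibitor and bars means. In PANC-1 the 4 ulixertinib libraries of DUSP8 lie between 6.54 and 13.4 CPM, above all libraries without a kinase inhibitor.

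ERK-specific and stress-kinase phosphatases were set against each other within each library as the mean log2(CPM + 1) of DUSP5, DUSP6 and DUSP7 minus that of DUSP8, DUSP10 and DUSP16. The value has no test and is read between treatments only, since the genes differ in length. In AsPC-1 its median was 2.71 (2.01 to 4.0) without a kinase inhibitor, 2.11 with RAF inhibitors, 1.26 (0.77 to 1.99) with MEK inhibitors and 1.00 (0.07 to 1.66) with ERK inhibitors. In PANC-1 it was 2.58 (1.88 to 3.61), 2.50 (0.16 to 3.02), 0.84 (0.00 to 1.45) and 0.80 (−0.07 to 1.53). The libraries with MEK or ERK inhibitors did not overlap those without a kinase inhibitor in either line. On this scale the ERK-specific median in AsPC-1 went from 3.87 without a kinase inhibitor to 2.51 with ERK inhibitors. The stress-kinase median there went from 1.08 to 1.52. In PANC-1 the same medians went from 4.23 to 2.77 and from 1.66 to 1.90. Adding 1 to CPM shrinks log2 changes most at low CPM, where the stress-kinase members lay. The means also hold DUSP5 in AsPC-1 and DUSP10 in PANC-1, which were too thinly counted to test. So the changes of the 2 sides cannot be weighed against each other here. By drug, PANC-1 had its lowest medians with ulixertinib (0.07), refametinib (0.41) and RAF709 (0.44).

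ERK inhibitors were compared with MEK inhibitors directly. In AsPC-1, 2 of 8 tested members were called, against 0.744% of all genes. DUSP6 was lower with ERK inhibitors (−0.92 ± 0.15 SE, adjusted p = 1.52e-04), and so was DUSP4 (−0.34 ± 0.07, adjusted p = 0.00406). The difference of DUSP4 was not called without ulixertinib (adjusted p = 0.508) or without selumetinib (adjusted p = 0.318), or without the plate term (adjusted p = 0.149), and neither difference was called within a plate. Over all alternatives the adjusted p ran from 1.39e-07 to 0.548 for DUSP6 and from 3.48e-04 to 0.674 for DUSP4. In PANC-1, edgeR called 0 of 7 members, against 2.26% of all genes, and DESeq2 called 1. At an unadjusted p under 0.05 with edgeR there were 2, and no share of all genes at that cut is given. Those 2 were DUSP5, higher by 0.39 ± 0.12 with ERK inhibitors (adjusted p = 0.0643), and DUSP16, higher by 0.49 ± 0.15 (adjusted p = 0.0731). DESeq2 called DUSP5 (adjusted p = 0.0486, from 0.0201 to 0.892 over all alternatives).

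The lines were compared in a joint fit of all libraries, in which 9 members could be tested among 13960 genes. For MEK inhibitors 3 members differed between the lines, against 11.4% of all genes, for ERK inhibitors 2, against 13.9%, and for RAF inhibitors 0, against 1.68%. The fall of DUSP6 was larger in PANC-1, by −1.47 ± 0.27 SE on the log2 scale with MEK inhibitors (adjusted p = 2.28e-05) and by −0.87 ± 0.30 with ERK inhibitors (adjusted p = 0.0403). The latter was not called without ulixertinib (adjusted p = 0.31), SCH772984 (adjusted p = 0.191) or AZD0364 (adjusted p = 0.0576), nor with no filter (adjusted p = 0.0677), and its lowest adjusted p over the alternatives was 0.00429. The fall of DUSP7 was larger in AsPC-1, with PANC-1 minus AsPC-1 differences of 0.80 ± 0.21 (adjusted p = 0.00479) and 0.95 ± 0.22 (adjusted p = 7.96e-04). The rise of DUSP16 with MEK inhibitors was larger in AsPC-1 (−1.19 ± 0.33, adjusted p = 0.00819). The difference for DUSP16 with ERK inhibitors was −0.68 ± 0.34 and was not called (adjusted p = 0.192).

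The autophagy inhibitors were also compared with each other. Without a kinase inhibitor, DUSP18 was higher with the Vps34 inhibitor than with hydroxychloroquine in both lines. In AsPC-1 it gave 4.27 to 13.7 CPM with hydroxychloroquine (median 9.16, n = 6) and 11.1 to 28.0 CPM with the Vps34 inhibitor (median 17.3, n = 6), a difference of 1.04 ± 0.26 SE (adjusted p = 0.00722). In PANC-1 DUSP18 gave 16.7 to 27.3 CPM (median 21.2) and 33.1 to 50.1 CPM (median 38.9) in the same order, a difference of 0.88 ± 0.19 (adjusted p = 0.00478). DUSP7 in AsPC-1 was lower with the Vps34 inhibitor, at 21.5 to 39.0 CPM (median 32.2) against 41.6 to 65.2 CPM (median 59.1) (−0.77 ± 0.19, adjusted p = 0.00407). These were 2 calls of 8 tested members in AsPC-1, against 5.93% of all genes, and 1 of 7 in PANC-1, against 2.49%. Within single plates, with 3 libraries of each autophagy inhibitor, DUSP18 was called on plate A of AsPC-1 (adjusted p = 0.023) and the other values were not called, at adjusted p from 0.101 to 0.658. Leaving out single libraries or changing the other settings ended none of these 3 calls. In PANC-1, DUSP5 was short of the threshold with edgeR (0.62 ± 0.19, adjusted p = 0.0586) and past it with DESeq2 (adjusted p = 0.0307, up to 0.828 over all alternatives), and DUSP1 was short of it (−0.57 ± 0.18, adjusted p = 0.0798, from 0.0417 without hydroxychloroquine alone replicate 2 to 0.659).

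No member passed the test of a difference in kinase inhibitor effect between the autophagy inhibitors. EdgeR called 0 members for RAF, MEK and ERK inhibitors in both lines, as did DESeq2, against 0%, 0.094% and 0.313% of all genes in AsPC-1 and 0% in all 3 of PANC-1. At an unadjusted p under 0.05 there were 3, over 8 members tested in AsPC-1 and 7 in PANC-1 for each of 3 classes. Some such values arise by chance over that many tests. No share of all genes at that cut is given, so the values below only describe the libraries. In AsPC-1 with ERK inhibitors, the fall was larger with the Vps34 inhibitor for DUSP4, by −0.44 ± 0.15 SE (adjusted p = 0.254), and for DUSP6, by −0.78 ± 0.31 (adjusted p = 0.347). In PANC-1 with MEK inhibitors it was larger for DUSP5, by −0.64 ± 0.25 (adjusted p = 0.699). Taken within each autophagy inhibitor, DUSP6 changed with MEK inhibitors by −1.92 ± 0.19 (hydroxychloroquine) and −2.08 ± 0.19 (Vps34 inhibitor) in AsPC-1. In PANC-1 the same values were −3.59 ± 0.32 and −3.35 ± 0.33.

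Other genes of the pathway were read from lists chosen with earlier results known. Of 20 ERK feedback regulators and targets, 15 of 17 tested were lower with MEK inhibitors in AsPC-1 and 14 of 17 with ERK inhibitors. The shares of all genes lower there were 16.1% and 17.4%. The median log2 fold changes of the list were −0.91 and −1.10, against −0.05 and −0.06 over all genes tested. In PANC-1 17 of 18 and 16 of 18 were lower, against 10.6% and 8.68% of all genes. The medians there were −1.51 and −1.28, against −0.02 for each over all genes. SPRY4, which restrains RAS activation, fell by 2.84 ± 0.11 SE with MEK inhibitors in AsPC-1 and by 3.27 ± 0.13 in PANC-1. FOSL1, an AP-1 subunit, fell by 2.71 ± 0.08 in AsPC-1 and by 1.24 ± 0.06 in PANC-1. With RAF inhibitors 4 of 17 were lower in AsPC-1, where 4.91% of all genes were, and the median was −0.18 against −0.04 over all genes. In PANC-1 3 of 18 were lower, against 0.436% of all genes, and the median was −0.41 against −0.03.

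Among the genes of the MAP kinases themselves, which are the substrates of the phosphatases, 9 of 10 were tested in AsPC-1 and 10 in PANC-1. MAPK3, which encodes ERK1, was higher with ERK inhibitors in both lines, by 0.59 ± 0.15 SE in AsPC-1 and 0.45 ± 0.13 in PANC-1. MAPK13, which encodes p38 delta, was lower in PANC-1, at −0.89 ± 0.27 with MEK inhibitors and −1.10 ± 0.29 with ERK inhibitors. In the list of 14 stress MAP kinase module genes, calls went in both directions. With MEK inhibitors 3 of 13 tested were lower and 3 higher in AsPC-1, against 16.1% and 12.9% of all genes, with a median of −0.15 against −0.05. In PANC-1 3 of 14 were lower and 3 higher, against 10.6% and 7.9%, with a median of −0.15 against −0.02. MAP2K3, a kinase that activates p38, was lower with MEK inhibitors in PANC-1 (−0.72 ± 0.11) and with ERK inhibitors in AsPC-1 (−0.95 ± 0.16). JUN fell in PANC-1 with MEK inhibitors (−0.66 ± 0.12). GADD45B went up under MEK inhibitors, by 0.70 ± 0.11 (PANC-1) and 0.52 ± 0.12 (AsPC-1). MAP3K1 was higher in AsPC-1 under MEK (0.515 ± 0.084) and ERK inhibitors (0.497 ± 0.087). In PANC-1 MAP3K1 was lower under ERK inhibitors (−0.458 ± 0.123). Of 16 other DUSP family genes, 10 could be tested in each line. In AsPC-1 1 was lower and 1 higher with MEK inhibitors, and likewise with ERK inhibitors. Over all genes 16.1% were lower and 12.9% higher with MEK inhibitors there, and 17.4% and 13.7% with ERK inhibitors. The median was 0.01 for each class, against −0.05 and −0.06 over all genes. In PANC-1 1 was higher with ERK inhibitors, against 5.45% of all genes, with a median of 0.12 against −0.02. DUSP3, a small atypical phosphatase of ERK and JNK, was higher with ERK inhibitors in both lines, by 0.48 ± 0.13 in AsPC-1 and by 0.30 ± 0.11 in PANC-1, and with MEK inhibitors in AsPC-1 by 0.39 ± 0.13 (adjusted p = 0.0164). In AsPC-1, DUSP12 was lower with ERK inhibitors (−0.57 ± 0.16, adjusted p = 0.00452) and DUSP23 with MEK inhibitors (−0.30 ± 0.11, adjusted p = 0.0251).

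Across the 30 treatment-group means of a line, DUSP6 correlated with DUSP4 in AsPC-1 (Pearson r = 0.938), with DUSP5 in PANC-1 (0.847) and with DUSP7 in both (0.707 and 0.507). DUSP6 and DUSP16 gave r of −0.464 and −0.474, and DUSP6 and DUSP8 gave −0.226 in AsPC-1 and −0.679 in PANC-1. Among 6767 other genes well detected in both lines, the 5 with a pattern most like that of DUSP6 were SPRY4 (0.938 in AsPC-1 and 0.933 in PANC-1), PHLDA1 (0.925 and 0.954), SEMA4B (0.914 and 0.932), NT5E (0.892 and 0.908) and FOSL1 (0.91 and 0.882). The group means share plates, and the classes of drug set much of their spread, so these correlations are given as a description.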

How the data were processed

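Gene counts of all PLATE-Seq libraries, 68 per line, were used as deposited by the authors, with no normalization, as whole-number counts per gene symbol. Kallisto 0.44.0 and GRCh38 are named per the submitters' processing notes, while no source used here gives the strand setting or the annotation. Groups, kinase inhibitors and autophagy inhibitors came from the sample titles, and plates A and B from the prefix of the library name in each title. CPM was computed on raw library totals. EdgeR 4.0.16 (R 4.3.3) was run with TMM scaling, filterByExpr by group and robust quasi-likelihood fits, with a plate term, on all 68 libraries of a line (37 residual degrees of freedom) and on both lines together (74). Adjusted p-values are Benjamini-Hochberg values over all genes tested in a comparison, with a threshold of 0.05. A standard error is the log2 fold change divided by the root of F. The fits were tested on simulated data first. Alternatives were DESeq2 1.42.0, its size factors, no filter, a stricter filter, no plate term, single plates, each drug or each library of the autophagy inhibitors alone left out, and drugs as replicates. Python 3.11.15, pandas 2.3.3 and matplotlib 3.10.9 made the tables and figures.

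Same-plate libraries of different groups shared little: over 435 pairs of groups per line, the median correlation of their deviations from the group means was 0.0342 in AsPC-1 (−0.074 to 0.147) and 0.0544 in PANC-1 (−0.147 to 0.249). The lowest correlation of log2 counts between libraries of a group was 0.953. The members, the gene lists and the comparison of RAF709 with the other RAF inhibitors were chosen with earlier results of these data known. All 10 members could be named in every comparison where they were tested. From the pathway lists, up to 3 called genes per list and class comparison with the smallest adjusted p could be named. Genes most like DUSP6 were ranked by the smaller of the Pearson correlations in the 2 lines over 30 group means. A companion ranking for DUSP10 was not made, since that gene was not tested in PANC-1.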

Additional observations from a re-analysis of the deposited data

Results flagged for a closer look

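The effect of a class of kinase inhibitors differed between the lines for DUSP6, DUSP7 and DUSP16, by the joint edgeR test of all libraries. As PANC-1 minus AsPC-1 on the log2 scale, the difference for DUSP6 was −1.467 with MEK inhibitors (adjusted p = 2.28e-05) and −0.866 with ERK inhibitors (adjusted p = 0.0403). For DUSP7 it was 0.796 with MEK inhibitors (adjusted p = 0.00479) and 0.948 with ERK inhibitors (adjusted p = 7.96e-04). For DUSP16 with MEK inhibitors it was −1.192 (adjusted p = 0.00819).

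Of 38 sets of values, each a member in a group of 6 libraries, 2 had a library apart from the rest, where chance gives about 1 in 20. Both were of thinly counted genes with the Vps34 inhibitor alone. DUSP8 in AsPC-1 had 1 library at 0.997 CPM, with the next at 0.335 CPM. DUSP4 in PANC-1 had 1 library at 0.402 CPM, with the other 5 at 0.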

How the results depend on the processing

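No called log2 fold change of a member changed direction under any alternative run, and of the member values 7018 stayed on their side of the threshold, 139 lost a call, 32 gained one and 285 that were not called in either setting changed sign. Counts of called members moved by more than 1.5 times as follows, and the cause was not tested. ERK against MEK inhibitors in AsPC-1 went from 2 to 1 with no plate term (no replicate block), with drugs as replicates, and without selumetinib or ulixertinib, and to 0 within plate A or plate B. RAF inhibitors in AsPC-1 went from 3 to 0 with drugs as replicates and 1 within plate B. In PANC-1 they went from 1 to 2 without dabrafenib and to 0 without RAF709, with drugs as replicates, and within either plate. ERK inhibitors in PANC-1 went from 4 to 2 without ulixertinib and within plates A and B. ERK against MEK inhibitors in PANC-1 went from 0 to 1 with DESeq2 and without cobimetinib or selumetinib, and to 2 without ravoxertinib. The Vps34 inhibitor against hydroxychloroquine gave 1 and 0 calls within plates A and B in place of 2 in AsPC-1. In PANC-1 it gave 2 with DESeq2 and 0 within either plate in place of 1, and 1 to 2 when single libraries were left out (2 without hydroxychloroquine replicate 2, which added DUSP1, or 4, which added DUSP5). Single drugs in AsPC-1 gave 26 calls within plate B in place of 44, and RAF709 against the other RAF inhibitors there gave 1 in place of 3. Leaving out a drug changed the weights of the comparison in the same fit. The difference between lines was not run without single libraries, within plates, with drugs as replicates or with another prior count. DESeq2 gave no adjusted p for DUSP6 with RAF inhibitors in PANC-1, and DUSP8 in AsPC-1 was filtered out with drugs as replicates. DUSP2 had too few counts to test, and DUSP8, DUSP10 and DUSP16 had few counts per library. Whether depth or transcript level set these counts was not tested.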
